A study of Homo sapiens with 12 samples.

Results

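The respiratory chain genes described here are 36 nuclear genes of cytochrome bc1 (complex III, 9 genes), cytochrome c (1 gene), cytochrome oxidase (complex IV, 11 genes) and ATP synthase (complex V, 15 genes). They were taken by symbol from the deposited gene tables, which list 62703 genes, and all 36 were found. Transcripts were measured by RNA-seq in Huh7 and Hep3B, established hepatocellular carcinoma lines. The tested cells carried a hairpin against SLC6A8, the plasma membrane creatine transporter (shSLC6A8), and their references a control hairpin (shNC), which gives 4 groups, Huh7 shSLC6A8, Huh7 shNC, Hep3B shSLC6A8 and Hep3B shNC, of 3 libraries each. All 12 libraries came from cells kept in hypoxia for 24 h, controls included, so the effect of hypoxia itself was not measured. The sources used here do not give the hairpin sequences, or say whether cells were pooled or cloned. Whether the 3 libraries of a group came from separate cultures is not stated either, so p-values measure the spread between libraries, which may be technical. Each line has a table of its own, so line and table cannot be told apart.

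Complex III passes electrons from ubiquinol to cytochrome c through cytochrome b, cytochrome c1 (CYC1) and the Rieske protein (UQCRFS1). Cytochrome c (CYCS) carries them to complex IV, which reduces oxygen, and complex V makes ATP from the proton gradient that results. Complex IV takes one of 2 forms of subunit 4, COX4I1 or COX4I2, and COX4I2 is known as the form induced by low oxygen in some cell types. Liver cells depend on this chain for much of their ATP.

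SLC6A8 fell in both lines, with a log2 change of -1.95 in Huh7 and -3.42 in Hep3B, and averaged 9.33 CPM in Huh7 shSLC6A8 and 35.9 CPM in Huh7 shNC, and 35.004 CPM in Hep3B shSLC6A8 and 373 CPM in Hep3B shNC. CPM here is a gene's share of its library's counts after TMM scaling (trimmed mean of M values, edgeR's correction of library size) over all 12 libraries. Library totals ran between 21065965 and 28078068 estimated counts, of which the 36 genes took 0.50% to 0.68%. All 8 hepatocyte and liver cancer markers, ALB and AFP among them, exceeded 1 TPM (the deposited level scaled by transcript length) in every library. Of 4 immune markers only CD14 and LYZ exceeded 1 TPM throughout, and the summed level of the 4 was 633 to 669.8 TPM in Huh7 shSLC6A8 and 284 to 294 TPM in Huh7 shNC, and 186 to 200.1 TPM in Hep3B shSLC6A8 and 335 to 354 TPM in Hep3B shNC. The summed level of the 8 hepatocyte markers also moved in opposite senses. It was 13721 to 14034 TPM in Huh7 shSLC6A8 and 9972 to 10625 TPM in Huh7 shNC. In Hep3B it was 12104 to 12653 TPM in shSLC6A8 libraries and 15369 to 15613 TPM in shNC libraries. Changes of single markers were not read. Fibroblast markers summed to 31.1 to 32.9 TPM in Huh7 shSLC6A8 and 18.1 to 24.0 TPM in Huh7 shNC, and were at 7.28 TPM or less in Hep3B. Endothelial markers summed to 2.46 TPM or less in every library. Of these only PECAM1 exceeded 1 TPM throughout a group, in Hep3B shNC. The part of these markers in the results below was not tested. In bulk RNA, fewer cells with a transcript and less of it per cell cannot be told apart.

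With SLC6A8 knocked down, 6 of the 35 tested subunit genes were called in opposite senses in the lines. That is 17.1%, near the 14.1% of the 14796 genes tested in both lines, and is no result about the members. In Huh7, cytochrome c and 7 genes of complex IV fell, while UQCRC1, CYC1, ATP5F1A, ATP5F1B and ATP5MC2 rose. In Hep3B those 5 fell, with UQCRC2, COX4I1 and more genes of complex V, and of the members only cytochrome c rose. Of the 35 genes with enough counts to test, 5 rose and 16 fell in Huh7 at an adjusted p under 0.05 by edgeR's quasi-likelihood test with Benjamini-Hochberg adjustment over all genes. That is 60% called, set against 61.8% of the 17022 genes tested in Huh7. In Hep3B 1 rose and 12 fell, 37.1% called against 40.1% of 16181 genes. The shares called in Huh7 and in Hep3B are near their backgrounds and are no result about the members. By direction, 14.3% of the members rose in Huh7 where 30.9% of all genes did, and 45.7% fell where 31% of all genes did. In Hep3B 2.86% rose against 18.9% of all genes, and 34.3% fell against 21.2%. In CPM, all knockdown libraries lay above all controls for 5 members and below them for 14 in Huh7, where 33.8% of all genes lay above and 32.8% below. In Hep3B they did so for 1 and 11 members, against 26% and 25.1% of all genes.

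The median log2 change of the 35 genes was -0.10 in Huh7, where that of all genes was 0.00, and -0.15 in Hep3B, where that of all genes was 0.01. The splits into genes that rose and fell depend on scaling in both lines, and on length mainly in Huh7. Scaled by library totals alone, 10 rose and 10 fell in Huh7 and 6 rose and 5 fell in Hep3B. The median of all genes then moved to 0.11 in Huh7 and 0.20 in Hep3B, and that of the members was still lower, at 0.01 and 0.04. With the trend on gene length removed, 13 rose and 10 fell in Huh7, with a median of 0.08 against -0.02 for all genes. In Hep3B 4 rose and 15 fell, with a median of -0.15 against 0.01 for all genes. Shares of all genes by direction were not computed under these settings. The members are short transcripts, with a median length of 856.5 bases in the tables against 2823 bases for expressed genes. Summed over all 36 genes, CPM averaged 6234 ± 280 in Huh7 shSLC6A8 and 6430 ± 322 in Huh7 shNC. In Hep3B it averaged 5168 ± 476 in shSLC6A8 libraries and 5893 ± 328 in shNC libraries. Summed TPM had the other order, with 14361 ± 432 in Huh7 shSLC6A8 and 13592 ± 390 in Huh7 shNC. In Hep3B it was 13383 ± 664 in shSLC6A8 libraries and 12890 ± 517 in shNC libraries (SD, n = 3 each). The TPM sums overlapped in both lines.

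**Figure D1:**
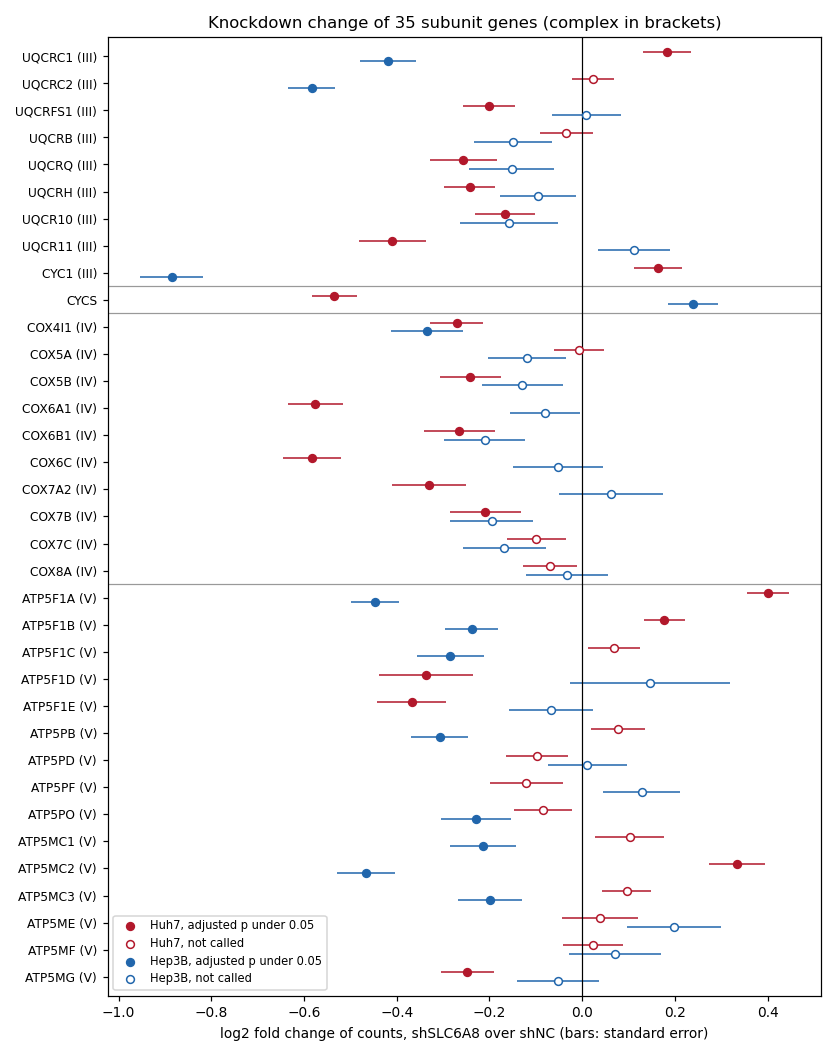
Log2 fold change of counts (shSLC6A8 over shNC) with its standard error for the 35 tested genes in Huh7 (red) and Hep3B (blue), grouped by complex from top to bottom. Filled points have an adjusted p under 0.05 by edgeR's quasi-likelihood test; in Huh7 the called points of complex IV all lie left of 0, and in Hep3B CYCS is the only filled point right of 0.

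In complex III, the core subunits and cytochrome c1 separated the lines. CYC1, which hands electrons to cytochrome c, had 141, 136 and 141 CPM in Huh7 shSLC6A8, against 123, 131 and 118 CPM in Huh7 shNC. Its Hep3B values were 144, 131 and 153 CPM in shSLC6A8 libraries, against 242, 273 and 270.5 CPM in shNC libraries. The groups did not overlap in either line, and the knockdown libraries were the higher ones in Huh7 and the lower ones in Hep3B. CYC1 rose by a log2 change of 0.16 ± 0.05 (SE, adjusted p = 0.0104) in Huh7 and changed by -0.89 ± 0.07 (SE, adjusted p = 5.14e-06) in Hep3B. The rise in Huh7 was not called without Huh7 shNC replicate 3 (adjusted p = 0.0653), while the fall in Hep3B was called under each of 17 alternatives.

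UQCRC1, the first of the large core proteins on the matrix side, followed the same pattern. It had 281, 272 and 291 CPM in Huh7 shSLC6A8, against 242, 264 and 235 CPM in Huh7 shNC, a log2 change of 0.18 ± 0.05 (SE, adjusted p = 0.00556). In Hep3B the levels were 157, 147 and 165 CPM in shSLC6A8 libraries, against 194, 211 and 216.5 CPM in shNC libraries, a log2 change of -0.42 ± 0.06 (SE, adjusted p = 0.000359). No knockdown library fell within the range of its controls in either line. UQCRC2, the partner core protein, had 149, 146 and 135 CPM in Hep3B shSLC6A8, against 214, 216 and 209 CPM in Hep3B shNC, and fell with a log2 change of -0.58 ± 0.05 (SE, adjusted p = 1.27e-05). In Huh7 its change was 0.02 ± 0.05 (SE, adjusted p = 0.673), with overlapping groups.

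The other 6 genes of complex III code for the Rieske protein and for small accessory subunits. In Huh7 UQCR11 fell most, with 72.8, 81.0 and 83.3 CPM in shSLC6A8 libraries against 104, 115 and 94.2 CPM in shNC libraries (log2 change -0.41 ± 0.07 SE, adjusted p = 0.000149). UQCRQ (-0.26), UQCRH (-0.24), UQCRFS1 (-0.20) and UQCR10 (-0.17) fell there too, and UQCRB did not pass the test. UQCRH binds near cytochrome c1, and UQCRB and UQCRQ lie by the quinone sites. In Hep3B none of these 6 passed the test, with log2 changes between -0.16 and 0.11. Under library totals UQCRQ (adjusted p = 0.0717), UQCRFS1 (0.129) and UQCR10 (0.404) were not called in Huh7, and with the length trend removed UQCRH (0.124) and UQCR10 (0.672) were not. The UQCR10 call in Huh7 was also lost without any of 4 single libraries, shNC replicates 1 and 2 and shSLC6A8 replicates 1 and 2 (adjusted p = 0.0976 to 0.235). Without Hep3B shSLC6A8 replicate 2, UQCR11 would count as higher in Hep3B (adjusted p = 0.0266), and without replicate 3 of that group UQCRB (0.0358) and UQCRQ (0.0394) would count as lower.

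Cytochrome c went the other way from cytochrome c1 in both lines. CYCS had 249, 264 and 272 CPM in Huh7 shSLC6A8, against 365, 392 and 375 CPM in Huh7 shNC. Hep3B gave 264, 243 and 273 CPM in shSLC6A8 libraries, against 209.9, 221 and 225 CPM in shNC libraries. All 3 knockdown libraries lay below their controls in Huh7 and all 3 above them in Hep3B. The log2 change was -0.53 ± 0.05 (SE, adjusted p = 5.65e-08) in Huh7 and 0.24 ± 0.05 (SE, adjusted p = 0.00625) in Hep3B, and both were called under each of 17 alternatives.

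Set against each other per length, the donor and the carrier came to a like ratio in the knockdown groups of both lines. The ratio of CYCS to CYC1 TPM, chosen after values were seen, was 0.833, 1.04 and 1.04 in Huh7 shSLC6A8, against 1.51, 1.66 and 1.70 in Huh7 shNC. In Hep3B it was 0.971, 0.941 and 0.974 in shSLC6A8 libraries, against 0.482, 0.470 and 0.482 in shNC libraries. The geometric means were thus 0.967 in Huh7 shSLC6A8 and 0.962 in Hep3B shSLC6A8, where the controls had 1.62 in Huh7 and 0.478 in Hep3B. The log2 difference between knockdown and control was -0.75 in Huh7 and 1.01 in Hep3B. The two-sided exact permutation p was 0.1 in each, the smallest that 3 against 3 libraries allow. CYCS and CYC1 already separated the groups in opposite senses in each line, so this outcome was fixed and lends no support. Whether the knockdown groups of the lines shared a ratio was not tested.

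**Figure D2:**
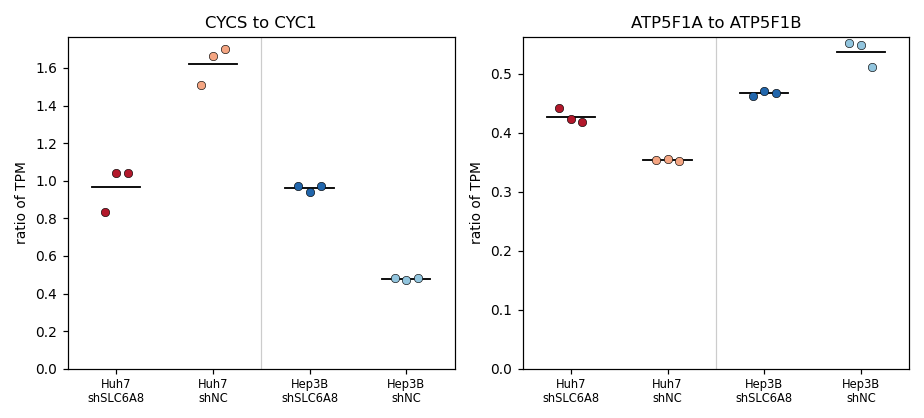
Ratio of deposited TPM for CYCS to CYC1 (left) and ATP5F1A to ATP5F1B (right) in the 4 groups, with 1 point per library and a line at the geometric mean of 3 libraries. The CYCS to CYC1 ratio is near 0.967 and 0.962 in the knockdown groups and 1.62 and 0.478 in the Huh7 and Hep3B controls.

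In complex IV, 7 of the 10 tested nuclear genes fell in Huh7 and none rose, where 31% of all genes fell and 30.9% rose. COX4I1 alone fell in Hep3B, where 21.2% of all genes fell. Scaled by library totals, 4 of the 10 fell in Huh7 and none was called in Hep3B. With the length trend removed, 2 rose and 4 fell in Huh7, COX5A (0.18) and COX8A (0.13) being the 2. COX6A1 and COX6C, small subunits of the oxidase, had the largest changes. COX6C had 82.6, 82.9 and 84.7 CPM in Huh7 shSLC6A8, against 114, 138 and 121 CPM in Huh7 shNC, with a log2 change of -0.58 ± 0.06 (SE, adjusted p = 3.57e-07). COX6A1 had 181, 169 and 191 CPM in Huh7 shSLC6A8, against 265, 287 and 249 CPM in Huh7 shNC, with a log2 change of -0.58 ± 0.06 (SE, adjusted p = 1.96e-07). For both genes every knockdown library lay below every control. In Hep3B their groups overlapped, with log2 changes of -0.05 for COX6C and -0.08 for COX6A1 that did not pass the test.

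COX7A2 (-0.33), COX6B1 (-0.27), COX5B (-0.24) and COX7B (-0.21) fell in Huh7 as well, where COX6B1 faces the cytochrome c side and COX5B binds zinc. COX5A, COX7C and COX8A passed the test in neither line. Without Huh7 shNC replicate 2 the calls of COX6B1 (adjusted p = 0.124) and COX7B (0.180) were lost, and COX7B was also lost without Huh7 shNC replicate 3 (0.0804), Huh7 shSLC6A8 replicate 1 (0.182) or replicate 2 (0.0796). In Hep3B, COX6B1 would count as lower without shNC replicate 1 (0.0371), and COX6B1 (0.0171) and COX7B (0.00891) without shSLC6A8 replicate 3. Under library totals COX5B, COX6B1 and COX7B were not called in Huh7 (adjusted p = 0.0669 to 0.242), nor with the length trend removed (0.0632 to 0.259).

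COX4I1 (ENSG00000131143, chromosome 16, 85799695 to 85807068, GRCh38.p14) is the common form of subunit 4. It had 284, 273 and 309.6 CPM in Huh7 shSLC6A8, against 334, 374 and 333 CPM in Huh7 shNC, with a log2 change of -0.27 ± 0.06 (SE, adjusted p = 0.00058). For Hep3B it was at 278, 240.4 and 296 CPM in shSLC6A8 libraries, against 313, 356 and 349 CPM in shNC libraries, with a log2 change of -0.33 ± 0.08 (SE, adjusted p = 0.00675). The groups did not overlap in either line. It was the only member called in the same direction in both lines, 2.86% of 35 against 14.6% of the 14796 genes tested in both. The difference of the changes was -0.06 ± 0.11 (SE, adjusted p = 0.696). The Hep3B call was lost under library totals (log2 change -0.14, adjusted p = 0.11), and per length the Huh7 groups overlapped, with 728, 687 and 762 TPM in shSLC6A8 libraries and 731, 777 and 736 TPM in shNC libraries.

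COX4I2 (ENSG00000131055, chromosome 20, 31637912 to 31645006) was at the edge of detection in these hypoxic cells. It had 0 counts in each of the 6 Huh7 libraries. The 95% exact Poisson interval then reaches 3.69 counts over a group, which is 0.0456 CPM in Huh7 shSLC6A8 and 0.0529 CPM in Huh7 shNC. In Hep3B it had 2, 7 and 1 counts in shSLC6A8 libraries, against 4, 7 and 6 counts in shNC libraries. The sums were 10 counts (95% exact Poisson interval 4.80 to 18.4) beside 21793 counts of COX4I1 in Hep3B shSLC6A8, and 17 counts (9.90 to 27.2) beside 21114 counts of COX4I1 in Hep3B shNC. These intervals and the limits for 0 counts cover counting error only. The groups overlapped, and the log2 ratio of COX4I2 to COX4I1 TPM differed by -0.95 between Hep3B shSLC6A8 and Hep3B shNC (two-sided exact permutation p = 0.5, smallest possible 0.1). That value ran between -2.23 (without Hep3B shSLC6A8 replicate 2) and -0.08 (without Hep3B shSLC6A8 replicate 3) when each library was left out. With so few counts and a smallest possible p of 0.1, the test could not decide whether the ratio changed. No ratio was formed in Huh7, and COX4I2 had too few counts for the test across genes.

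In complex V the catalytic and c ring genes divided the lines. ATP5F1A codes for subunit alpha and ATP5F1B for the catalytic subunit beta of the F1 head. ATP5F1A had 522, 511 and 543 CPM in Huh7 shSLC6A8, against 390.4, 404 and 394 CPM in Huh7 shNC, with a log2 change of 0.40 ± 0.04 (SE, adjusted p = 6.42e-07). In Hep3B it had 323, 293 and 323 CPM in shSLC6A8 libraries, against 412, 435 and 423 CPM in shNC libraries, with a log2 change of -0.45 ± 0.05 (SE, adjusted p = 9.5e-05). The knockdown libraries all lay above the controls in Huh7 and all below them in Hep3B, and both calls held under each of 17 alternatives.

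ATP5F1B had 1119, 1147 and 1179.55 CPM in Huh7 shSLC6A8, against 1005, 1015 and 1014 CPM in Huh7 shNC, and 668, 596 and 664 CPM in Hep3B shSLC6A8, against 724, 759.7 and 772 CPM in Hep3B shNC. Its log2 change was 0.18 ± 0.04 (SE, adjusted p = 0.00195) in Huh7 and -0.24 ± 0.06 (SE, adjusted p = 0.00748) in Hep3B, the second not called under library totals (adjusted p = 0.428). The ratio of ATP5F1A to ATP5F1B TPM, also chosen after values were seen, averaged 0.427 in Huh7 shSLC6A8 and 0.354 in Huh7 shNC, and 0.467 in Hep3B shSLC6A8 and 0.537 in Hep3B shNC. The libraries did not overlap in either line (two-sided exact permutation p = 0.1 in each, the smallest possible). As the ratio was chosen from these same values, that p is a description only. Subunit gamma (ATP5F1C) fell in Hep3B with a log2 change of -0.28, and leaving out Hep3B shNC replicate 2 ended that call (adjusted p = 0.0519). The small F1 subunits delta (ATP5F1D, -0.34) and epsilon (ATP5F1E, -0.37) fell in Huh7, but ATP5F1D was not called once the length trend was removed (adjusted p = 0.177) or Huh7 shSLC6A8 replicate 2 was left out (0.0501).

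The c ring is built from identical mature proteins coded by 3 genes, ATP5MC1, ATP5MC2 and ATP5MC3, and ATP5MC2 changed most. It had 136, 136 and 153 CPM in Huh7 shSLC6A8, against 113, 119 and 105 CPM in Huh7 shNC, with a log2 change of 0.33 ± 0.06 (SE, adjusted p = 0.000134). In Hep3B it had 138, 129.5 and 149 CPM in shSLC6A8 libraries, against 179, 197 and 195 CPM in shNC libraries, with a log2 change of -0.47 ± 0.06 (SE, adjusted p = 0.000239). Neither line showed overlap. Of the summed TPM of the 3 genes, ATP5MC2 held 36.3% ± 0.8 in Huh7 shSLC6A8 and 32.7% ± 0.6 in Huh7 shNC, and 56.4% ± 1.6 in Hep3B shSLC6A8 and 59.6% ± 0.2 in Hep3B shNC (SD, n = 3 each).

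ATP5MC1 (-0.21) and ATP5MC3 (-0.20) also fell in Hep3B, as did ATP5PB (-0.31) and ATP5PO (-0.23), subunits of the peripheral stalk that holds the F1 head. The calls of ATP5MC1, ATP5MC3 and ATP5PO were lost without any one of 4 Hep3B libraries, shNC replicates 2 and 3 and shSLC6A8 replicates 1 and 2 (adjusted p = 0.0553 to 0.144), and that of ATP5MC1 also without shSLC6A8 replicate 3 (0.0672). Of the 15 genes of complex V, 0 were higher and 8 lower in Hep3B, where 18.9% of all genes were higher and 21.2% lower. Under library totals complex V gave 3 higher and 2 lower there, with ATP5PB (adjusted p = 0.109), ATP5PO (0.648), ATP5MC1 (0.797), ATP5MC3 (0.913) and ATP5F1C (0.256) no longer called. ATP5MG, a membrane subunit, fell in Huh7 (-0.25). ATP5PD, ATP5PF, ATP5ME and ATP5MF passed the test in neither line. Without Hep3B shSLC6A8 replicate 2, ATP5PF (0.044) and ATP5ME (0.0131) would count as higher in Hep3B. Without Huh7 shNC replicate 2, ATP5PB (0.0055), ATP5MC1 (0.0124) and ATP5MC3 (0.0381) would count as higher in Huh7, and ATP5MC3 also without Huh7 shSLC6A8 replicate 1 (0.0251).

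The change itself differed between the lines for 14 of 35 genes (40.0%, against 47.1% of the 18570 genes tested over all 12 libraries, with 23.1% of all genes higher and 24% lower). It was lower in Hep3B than in Huh7 for 10, led by CYC1 (difference of log2 changes -1.04 ± 0.09 SE, adjusted p = 3.99e-08), ATP5F1A (-0.84 ± 0.07 SE, adjusted p = 1.96e-08) and ATP5MC2 (-0.80 ± 0.09 SE, adjusted p = 2.24e-06). It was higher in Hep3B for 4, led by CYCS (0.78 ± 0.07 SE, adjusted p = 1.88e-07) and COX6C (0.54 ± 0.13 SE, adjusted p = 0.00385). Of the complexes, III gave 1 higher and 3 lower, IV gave 2 higher and none lower, and V gave 7 lower and none higher. UQCRC1, CYC1, CYCS, ATP5F1A, ATP5F1B and ATP5MC2 were called in opposite directions in the lines, 17.1% of 35 against 14.1% of the 14796 genes tested in both. That share is near its background and is no result about the members. Across the 35 genes the changes in the lines had a Pearson r of -0.587 and a Spearman rho of -0.597, as a description of genes that share their libraries. No such correlation was computed over all genes, so it is not shown to be particular to the members. Their changes also ran with gene length in opposite senses, with a Spearman rho of 0.299 in Huh7 and -0.52 in Hep3B. The part of length in the correlation between the lines was not tested.

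**Figure D3:**
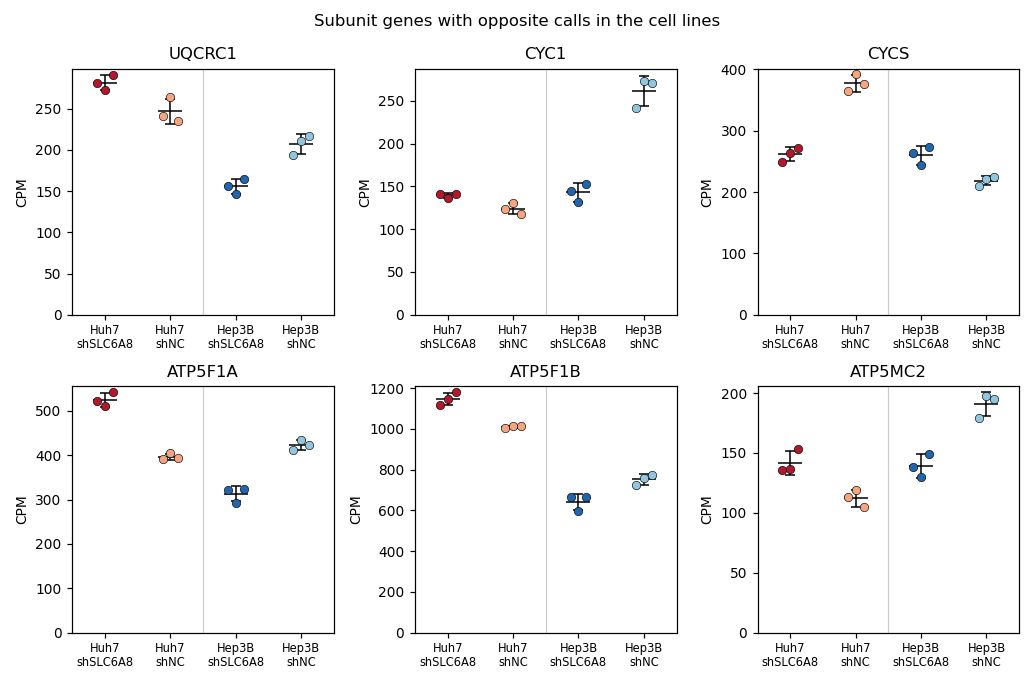
CPM (TMM-scaled over 12 libraries) of the 6 genes called in opposite directions, with 1 point per library, the mean as a bar and its SD over 3 libraries. CYCS averages 262 and 260.0 CPM in the Huh7 and Hep3B knockdown groups and 378 and 219 CPM in their controls.

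The controls of the lines differed in some of these genes. Between the lines, the knockdown groups lay close together for some genes and further apart than the controls for others. Of the 35 genes, 8 were higher and 14 lower in Hep3B shNC than in Huh7 shNC (62.9% called, against 81.2% of all genes, 39.9% higher and 41.3% lower). CYC1 (log2 1.08), ATP5MC2 (0.76), COX8A (0.73) and UQCRC2 (0.49) were the highest in Hep3B. UQCR10 (-1.55), ATP5MC1 (-1.40), ATP5MF (-1.24) and CYCS (-0.79) were the lowest there. CYC1 averaged 143 CPM in Hep3B shSLC6A8 and 139 CPM in Huh7 shSLC6A8, beside 262 CPM in Hep3B shNC and 124 CPM in Huh7 shNC. ATP5MC2 averaged 139 CPM in Hep3B shSLC6A8 and 142 CPM in Huh7 shSLC6A8, beside 191 CPM in Hep3B shNC and 112 CPM in Huh7 shNC. For ATP5F1A the order was the reverse, with 313 CPM in Hep3B shSLC6A8 and 525 CPM in Huh7 shSLC6A8, beside 423 CPM in Hep3B shNC and 396 CPM in Huh7 shNC. UQCRC1 and ATP5F1B were also further apart between the knockdown groups than between the controls, while CYCS was closer. Knockdown groups and controls share no library, but these levels were chosen after they were seen and no test was made of them. In the control comparison, COX7C and ATP5PD were not called as higher in Hep3B once Hep3B shNC replicate 2 or 3, or Huh7 shNC replicate 1 or 3, was left out (adjusted p = 0.0571 to 0.154).

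Per length, levels among the 35 genes other than COX4I2 spanned a wide range in every group. ATP5MF was the highest in Huh7, with 1403 ± 46 TPM in shSLC6A8 libraries and 1219 ± 61 TPM in shNC libraries, and ATP5ME in Hep3B, with 1249 ± 76 TPM in shSLC6A8 libraries and 999.8 ± 44 TPM in shNC libraries (SD, n = 3 each). Each was apart from the next gene in its group. UQCRFS1 was the lowest in all 4 groups, with 51.8 TPM in Huh7 shSLC6A8 and 52.1 TPM in Huh7 shNC, and 48.2 TPM in Hep3B shSLC6A8 and 41.3 TPM in Hep3B shNC. COX6A1 averaged 784 TPM in Huh7 shSLC6A8, below ATP5F1B and ATP5ME, and 1021 TPM in Huh7 shNC, above both. Among the 21 genes called in Huh7 the mean TPM moved with the count test for all 21, though the groups were apart for 11. Among the 13 called in Hep3B it moved with the test for 12, apart for 7, and ATP5PB was the exception. Several levels are uncertain because reads could be split with another gene. ATP5MF shares exons on its own strand with PTCD1 and their read-through gene, UQCR11 with AC005943.1, and ATP5PO with AP000311.1 (655 bases). With the use of strand unknown, the same holds for exons shared on the opposite strand. These include ATP5F1E with TUBB1 (1188 bases), ATP5ME with MYL5 (579), ATP5PF with GABPA (413), ATP5PB with WDR77 (350) and ATP5PD with KCTD2 (340). AP000311.1 and TUBB1 held 98 and 261 counts over the 12 libraries, beside 42734 for ATP5PO and 50658 for ATP5F1E. The read-through gene held 16.9% of its joint counts with ATP5MF, and copies of UQCRFS1 held 3.13% of theirs.

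**Figure D4:**
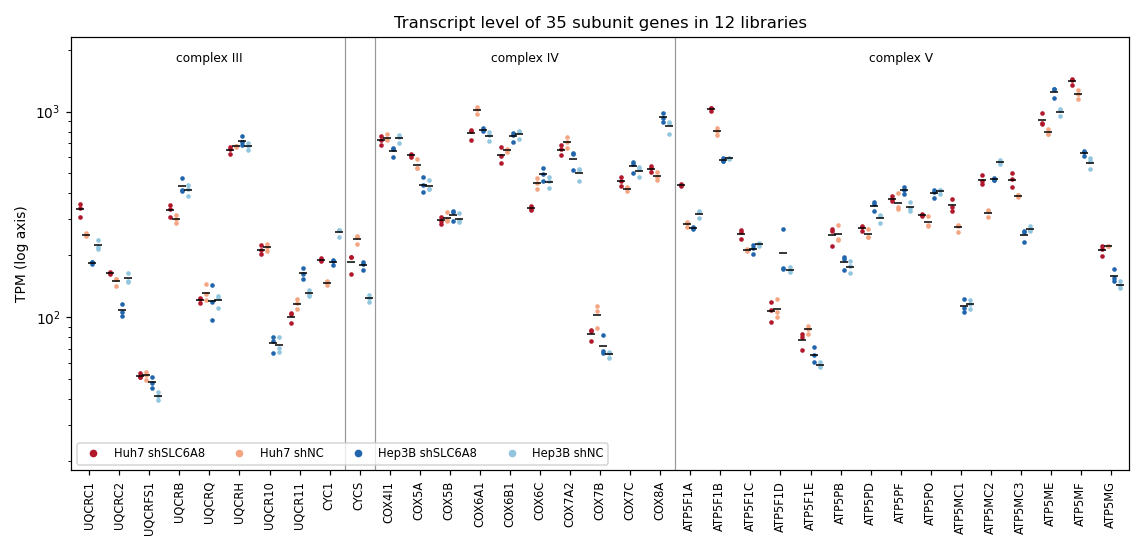
Deposited TPM on a log axis for the 35 genes other than COX4I2 in 12 libraries, with 1 coloured point per library and a black dash at the mean of 3 libraries. ATP5MF is highest in Huh7 (1403 and 1219 TPM in shSLC6A8 and shNC), ATP5ME in Hep3B (1249 and 999.8 TPM in shSLC6A8 and shNC), and UQCRFS1 is lowest in each group.

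Promoters were listed for 28 of the 36 genes. Those of the carrier CYCS, the core gene UQCRC1 and the F1 gene ATP5F1A are shown, 3 of the genes called in opposite directions in the lines. ATP5MC2 was also called so and had a listed promoter, which is not shown. The RefSeq windows on GRCh38.p14 run from 250 bases before the start to 50 bases after it, on the minus strand, at chr7:25125211-25125510 for CYCS, chr3:48609597-48609896 for UQCRC1 and chr18:46104178-46104477 for ATP5F1A. Capitals mark matches on either strand to the hypoxia response cores ACGTG and GCGTG, to the NRF1 palindrome, to the YY1 core AAGATGG and to the RBPJ core TGGGAA. Neighbouring matches to GCGTG overlap in CYCS and UQCRC1.
CYCS: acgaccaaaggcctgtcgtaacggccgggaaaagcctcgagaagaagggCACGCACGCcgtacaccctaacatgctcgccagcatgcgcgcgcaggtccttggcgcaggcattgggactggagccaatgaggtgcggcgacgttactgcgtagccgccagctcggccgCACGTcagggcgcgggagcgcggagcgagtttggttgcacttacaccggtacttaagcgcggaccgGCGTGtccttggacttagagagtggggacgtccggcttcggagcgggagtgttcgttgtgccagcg
UQCRC1: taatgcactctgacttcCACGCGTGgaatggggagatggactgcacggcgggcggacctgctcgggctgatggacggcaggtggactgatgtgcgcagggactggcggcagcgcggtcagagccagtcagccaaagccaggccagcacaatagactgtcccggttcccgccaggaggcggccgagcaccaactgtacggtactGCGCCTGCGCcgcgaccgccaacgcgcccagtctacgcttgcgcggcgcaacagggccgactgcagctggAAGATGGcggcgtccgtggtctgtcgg
ATP5F1A: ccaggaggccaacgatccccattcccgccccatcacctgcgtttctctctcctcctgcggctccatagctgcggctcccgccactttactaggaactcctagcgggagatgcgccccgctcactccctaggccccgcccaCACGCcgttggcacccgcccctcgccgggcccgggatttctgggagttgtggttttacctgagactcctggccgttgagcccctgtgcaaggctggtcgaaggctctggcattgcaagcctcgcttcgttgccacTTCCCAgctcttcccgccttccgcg
CYCS held 1 ACGTG and 3 GCGTG matches. UQCRC1 held the NRF1 palindrome, 2 GCGTG matches and the YY1 core, and ATP5F1A held 1 GCGTG and the RBPJ core. The ETS core CCGGAAG, which GABP binds, was in none of these 3 but in 12 of the 28 (42.9%, against 10.7% of 27305 promoters), COX4I1, COX6A1 and UQCR11 among them. The NRF1 palindrome was in 7 of 28 (25%, against 6.28% of all), the YY1 core in 8 (28.6%, against 6.06%) and the RBPJ core in 10 (35.7%, against 24.3%). ACGTG was in 9 (32.1%, against 21.6%) and GCGTG in 12 (42.9%, against 36.3%). The 28 windows held a median of 20.5 CG pairs, against 14 over all promoters. All of these strings but the YY1 and RBPJ cores contain CG, and its part in the shares was not tested. A match describes letters in the window and does not show binding.

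Lists of genes that insert haem into the complexes or assemble them were read against the 61.8% of all genes called in Huh7 and the 40.1% called in Hep3B, and their counts are a description. The change differed between the lines for 46.4% of the 28 complex IV assembly genes, near the 47.1% of all genes. HCCS, which attaches haem to cytochromes c and c1, had 21.6, 24.1 and 21.9 CPM in Huh7 shSLC6A8, against 39.1, 41.2 and 37.0 CPM in Huh7 shNC, and 20.4, 20.9 and 20.8 CPM in Hep3B shSLC6A8, against 16.1, 14.3 and 16.5 CPM in Hep3B shNC. Its groups did not overlap, and its log2 change was -0.80 in Huh7 (adjusted p = 4.25e-08) and 0.39 in Hep3B (adjusted p = 0.0038), as for CYCS. Of 28 genes of complex IV assembly and copper delivery, 7 rose and 14 fell in Huh7 (75% called). COX18 (0.84) had the smallest adjusted p of those that rose, and SMIM20 (-0.65) and COA6 (-1.03) the smallest of those that fell. In Hep3B 4 rose and 1 fell (17.9% called), the 1 being LRPPRC, which stabilises mitochondrial mRNAs, at -0.47. Among the 4, SURF1 (0.38) was not called without any one of 4 Hep3B libraries, shNC replicates 1 and 2 and shSLC6A8 replicates 1 and 3 (adjusted p = 0.0506 to 0.0608). Of 9 complex III assembly genes, 2 rose and 4 fell in Huh7 (66.7% called), UQCC4 (-0.75) and UQCC3 (-0.46) among the 4, and 1 fell in Hep3B, LYRM7. The LYRM7 call was lost under library totals and without any of 4 Hep3B libraries, shNC replicates 1 and 2 and shSLC6A8 replicates 1 and 3 (adjusted p = 0.0641 to 0.128). Of 9 ATP synthase assembly, inhibitor and minor subunit genes, 2 rose and 4 fell in Huh7 (66.7% called) and 1 rose in Hep3B (11.1% called). DMAC2L, 1 of the 2 (0.40), was not called without Huh7 shNC replicate 1 or 2 or Huh7 shSLC6A8 replicate 1 or 2 (adjusted p = 0.0585 to 0.12). TMEM70, needed to assemble the c ring, was at -0.45 in Huh7 and 0.43 in Hep3B.

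Mitochondrially coded partners of the complexes showed no single direction. Of the 6 genes of these complexes, 1 rose and 1 fell in Huh7 (33.3% called, against 61.8% of all genes) and 1 rose and 3 fell in Hep3B (66.7% called, against 40.1%). MT-CO1, the catalytic subunit of complex IV, fell in both lines, with a log2 change of -0.20 in Huh7 and -0.34 in Hep3B, and MT-CO2, which receives electrons from cytochrome c, was at -0.38 in Hep3B. MT-CO3, the gene that rose in Hep3B (0.21), was not called without shNC replicate 1 or 2 or shSLC6A8 replicate 1 or 3 of Hep3B (adjusted p = 0.0593 to 0.0966). The 5 tested isoforms and associated subunits of complex IV all fell in Huh7 (100% called) and 2 fell in Hep3B (40% called). The 2 were NDUFA4L2 and COX7A2L, the second not called under library totals or without Hep3B shNC replicate 2 or 3 or Hep3B shSLC6A8 replicate 1 (adjusted p = 0.0698 to 0.086). NDUFA4L2, a hypoxia-induced homologue of the complex IV subunit NDUFA4, fell to 0.569 CPM in Huh7 shSLC6A8, against 1.66 CPM in Huh7 shNC, and to 1.35 CPM in Hep3B shSLC6A8, against 5.02 CPM in Hep3B shNC (log2 -1.52, adjusted p = 0.00109 in Huh7, and -1.90, adjusted p = 5.9e-05 in Hep3B). NDUFA4 was at -0.78 (adjusted p = 5.05e-07) in Huh7 and -0.0031 (adjusted p = 0.984) in Hep3B, and HIGD1A, a hypoxia-induced partner of complex IV, at -0.50 (adjusted p = 1.38e-07) in Huh7.

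Regulators were read from lists chosen with earlier results of these data known. Of 6 genes tied to the subunit 4 switch and the COX4I2 promoter, 4 rose and 2 fell in Huh7. That is 100% called, against 61.8% of all genes, 30.9% higher and 31% lower. In Hep3B 5 fell (83.3% called, against 40.1% of all genes, 18.9% higher and 21.2% lower). EPAS1 (HIF-2 alpha) had 219, 217 and 210.0 CPM in Huh7 shSLC6A8, against 187, 164 and 178 CPM in Huh7 shNC, and 89.0, 97.3 and 83.7 CPM in Hep3B shSLC6A8, against 196, 178 and 175 CPM in Hep3B shNC. Its log2 change was 0.28 (adjusted p = 0.000169) in Huh7 and -1.03 (adjusted p = 1.94e-06) in Hep3B, with no overlap in either line. RBPJ and CXXC5, which act on the COX4I2 promoter, were at 0.17 and 0.42 in Huh7 and at -0.60 and -0.33 in Hep3B, and HIF1A at 0.35 and -0.26. LONP1, a matrix protease that degrades COX4I1, fell in both lines (-0.47 in Huh7 and -0.30 in Hep3B), and CHCHD2 fell in Huh7 (-0.37). Under library totals the Hep3B calls of LONP1 (adjusted p = 0.059), CXXC5 (0.0542) and HIF1A (0.52) were lost. The RBPJ call in Huh7 was lost without Huh7 shNC replicate 2 (adjusted p = 0.0509), and that of HIF1A in Hep3B without any of 4 libraries, shNC replicates 1 and 2 and shSLC6A8 replicates 1 and 3 (0.052 to 0.0988). Of 11 regulators of respiratory genes, 6 rose and 3 fell in Huh7 (81.8% called, against 61.8% of all genes). PPARGC1B (1.004) and TFB1M (0.57) had the smallest adjusted p of those that rose in Huh7. ESRRA (-0.41) and TFB2M (-0.36) had the smallest of those that fell there. In Hep3B 3 fell (27.3% called, against 40.1% of all genes), among them ESRRA (-0.22). Its Hep3B call was lost under library totals and without shNC replicate 2 or 3 or shSLC6A8 replicate 1 (adjusted p = 0.0511 to 0.0706). PPARGC1A, the coactivator of mitochondrial biogenesis, had 10.2, 12.05 and 11.3 CPM in Hep3B shSLC6A8, against 23.5, 21.1 and 21.7 CPM in Hep3B shNC (log2 -0.99, adjusted p = 1.94e-05). In Huh7 it was under 3 CPM, with a log2 change of 0.35 that did not pass the test (adjusted p = 0.284).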

How the data were processed

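RNA-seq libraries were made from total RNA with an mRNA kit, per the labels' protocols. For each line the authors deposited a table of estimated counts per gene (not all whole numbers) and TPM. Coordinates are on GRCh38.p14, which the labels name per the submitters' processing notes. As for aligner, counting tool and use of strand, each is not given in the sources used here, so reads of overlapping antisense genes cannot be told apart. The members and gene lists were chosen with earlier results of these data known. All 36 members, SLC6A8, and from each list up to 2 called genes per line and direction with the smallest adjusted p were open to naming.

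Estimated counts were rounded and tested with edgeR 4.0.16 (R 4.3.3; filterByExpr, TMM, robust quasi-likelihood), 6 libraries per line for the knockdown and all 12 for the difference and for the controls, with Benjamini-Hochberg adjustment over all genes and a threshold of 0.05. Log2 fold changes are from these fits on the deposited counts, and p-values were computed from the deposited counts, not taken from the authors. Levels between genes are the authors' TPM. Intervals have a confidence level of 95%. Alternatives were DESeq2 1.42.0, limma-voom 3.58.1, other scalings, filters and thresholds, a length correction, summed copies, a replicate block and leaving out each library. A gene uncalled under both settings was counted as the same. The fit was tested on simulated data. Promoters came from RefSeq.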

Additional observations from a re-analysis of the deposited data

Results flagged for a closer look

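For 14 of the 35 tested genes the knockdown change differed between the lines by the interaction term of edgeR's quasi-likelihood test over 12 libraries, at an adjusted p under 0.05. That is 40.0%, against 47.1% of the 18570 genes tested, so the count is no result about the members. The difference of log2 changes, Hep3B minus Huh7, was 0.78 for CYCS, 0.54 for COX6C, 0.53 for UQCR11 and 0.50 for COX6A1. It was -1.04 for CYC1, -0.84 for ATP5F1A, -0.80 for ATP5MC2, -0.60 for UQCRC2, -0.60 for UQCRC1, -0.41 for ATP5F1B, -0.38 for ATP5PB, -0.35 for ATP5F1C, -0.31 for ATP5MC1 and -0.29 for ATP5MC3. All but ATP5MC1 and ATP5MC3 were called under each of 22 alternatives. ATP5MC3 was lost only at an adjusted p of 0.01. ATP5MC1 was lost without Hep3B shNC replicate 2 or 3, Hep3B shSLC6A8 replicate 2, Huh7 shNC replicate 1 or 3 or Huh7 shSLC6A8 replicate 3 (adjusted p = 0.0577 to 0.0832), under library totals (0.0782) and at an adjusted p of 0.01.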

How the results depend on the processing

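Of the called members, 4 of 5 higher and 8 of 16 lower in Huh7, and 1 of 1 higher and 5 of 12 lower in Hep3B, were called in each of 17 alternatives. Counts of members moved by over 1.5 times in these cases. Library totals gave 10 higher and 10 lower in Huh7, 6 higher and 5 lower in Hep3B, and 9 higher for the difference between lines. Removing the length trend gave 13 higher and 10 lower in Huh7, 4 higher in Hep3B, 17 lower for the difference and 18 higher in the Hep3B over Huh7 controls. No filter on low counts gave 2 higher in Hep3B, 8 for the difference and 14 in the controls. An adjusted p of 0.01 left 4206 of 6488 genes called in Hep3B. Leaving out 1 library gave 4 to 8 higher and 13 to 16 lower in Huh7 (8 without Huh7 shNC replicate 2), 1 to 4 higher and 8 to 15 lower in Hep3B, 4 to 9 higher and 9 to 10 lower for the difference (Hep3B shSLC6A8 replicate 2 left out gave both the 4 higher in Hep3B and the 9 higher for the difference), and 6 to 11 higher and 14 lower in the controls. Genes called over the whole table then numbered 9722 to 10508, 4905 to 6513, 8150 to 8948 and 14852 to 15450, in that order.

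Without the length trend UQCRB (0.10), COX5A (0.18), COX8A (0.13), MT-CO2 (0.14) and MT-CO3 (0.15) turned higher in Huh7, MT-CO3 also under library totals (0.092). The difference turned to -0.21 for COX6B1, -0.22 for COX8A and -0.22 for ATP5MF, and the control comparison to 0.20 for UQCRH, 0.21 for COX4I1, 0.20 for COX5B and 0.20 for ATP5PF. The cause was not tested. Same-numbered libraries correlated between -0.099 and 0.135 in their deviations, so the numbers were not taken as pairs. With the replicate block 5 members rose and 15 fell in Huh7, and the log2 change of UQCR10 (-0.17) was no longer called; in Hep3B that of ATP5MC1 (-0.22) was not. The Huh7 COX4I2 ratio and its alternatives were not run, since COX4I2 was at 0 there.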
